A study of Mus musculus with 10 samples.

Results

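Low-coverage genomic DNA sequencing was used to compare male C57/Bl6 mouse embryonic stem cells (mESCs) after 10 passages in Keniry2022 conditions with the same lines after 10 passages in Mulas2019 conditions. Members were chosen by their labels alone, as the libraries titled p10 New (Keniry2022) and p10 Old (Mulas2019), and they make up 4 of the 10 libraries of the study. Each condition held 1 library from each of 2 independently derived lines, and the replicate number marks the line. All cells were kept in 2i/LIF, a medium with inhibitors of MEK and GSK3 and the cytokine LIF. Keniry2022 cells grew in suspension without a substrate at higher density and were passaged every 24 h. Mulas2019 cells grew on gelatin at lower density and were passaged every 48 h. At p10 the cells were therefore 10 days beyond p0, the start of the experiment, in Keniry2022 and 20 days beyond it in Mulas2019, so that the protocol and the days in culture cannot be told apart. The remaining libraries were p0 cultures and p20 cultures of both conditions. In the p10 comparison they entered the fit only to estimate the spread, and the p20 libraries were used for themselves only where the p10 difference is set against that at p20.

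Reads of a genomic library are used to gauge how often each stretch of DNA is present in a culture. Here the read level also followed base composition, and which part of a difference reflects copy number was not tested. A gain of a whole chromosome in every diploid cell takes the level from 2 copies to 3, or 0.58 on the log2 scale, and a gain in part of the cells gives less. Recurrent gains of whole chromosomes are known in cultured mESCs, with chromosomes 8, 1 and 11 among those often gained. Mouse chromosomes are a mosaic of long blocks that differ in the share of G and C bases. GC-rich blocks hold most genes, whereas AT-rich blocks hold few genes and many LINE repeats.

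The p10 libraries held 27270648 and 35354358 reads in Mulas2019 and 31482659 and 32435718 reads in Keniry2022, in the order of lines 1 and 2. Reads were summed in bins of 1 Mb, and 2391 of 2473 autosomal bins on chromosomes 1 to 19 passed a filter on low counts. Levels are given as CPM, counts scaled to a common library total, and differences as log2FC of Keniry2022 over Mulas2019 within a line. The median bin held 11468 to 14724 reads per library, a counting error of 0.824% to 0.934%. Line 1, labelled male like line 2, held few Y reads. The Y chromosome took 0.000880% of its reads in Mulas2019 and 0.00111% in Keniry2022. In line 2 the Y share was 0.0594% and 0.0570%. The study describes a male line whose Y was lost while it was being derived, ahead of the split into both conditions. The part of this difference between the lines in the autosomal results was not tested.

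The bins at both ends of the comparison differed in base composition, as the reference sequence of GRCm38 (mm10) shows. The following stretches of 200 bases from the 2 bins with the highest and the 2 with the lowest log2FC on separate chromosomes were chosen for a GC content close to that of their bin, outside genes and annotated repeats. G and C are in capitals, on the plus strand.

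Higher in Keniry2022, chr4:140505001-140505200, 52% GC: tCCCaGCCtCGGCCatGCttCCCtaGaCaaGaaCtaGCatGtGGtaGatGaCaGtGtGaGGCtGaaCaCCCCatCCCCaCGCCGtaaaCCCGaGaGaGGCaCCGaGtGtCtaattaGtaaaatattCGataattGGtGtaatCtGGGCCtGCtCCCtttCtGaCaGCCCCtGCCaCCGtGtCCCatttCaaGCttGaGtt
Higher in Keniry2022, chr15:84512601-84512800, 50% GC: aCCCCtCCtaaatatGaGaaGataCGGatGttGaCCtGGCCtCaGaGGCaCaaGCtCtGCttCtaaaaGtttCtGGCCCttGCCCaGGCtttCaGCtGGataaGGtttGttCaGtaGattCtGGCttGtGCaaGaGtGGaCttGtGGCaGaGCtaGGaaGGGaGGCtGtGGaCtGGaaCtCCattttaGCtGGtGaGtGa
Lower in Keniry2022, chr4:113291601-113291800, 37% GC: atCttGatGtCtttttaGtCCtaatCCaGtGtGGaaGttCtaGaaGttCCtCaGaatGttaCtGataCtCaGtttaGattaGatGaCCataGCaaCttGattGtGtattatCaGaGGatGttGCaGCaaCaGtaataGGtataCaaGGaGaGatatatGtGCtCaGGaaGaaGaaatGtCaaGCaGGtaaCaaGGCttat
Lower in Keniry2022, chr7:85494801-85495000, 37% GC: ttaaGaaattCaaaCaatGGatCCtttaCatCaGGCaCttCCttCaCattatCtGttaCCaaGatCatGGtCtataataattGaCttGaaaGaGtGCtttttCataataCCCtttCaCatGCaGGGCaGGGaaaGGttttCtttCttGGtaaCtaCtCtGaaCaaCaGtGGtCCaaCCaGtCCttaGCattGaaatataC

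The first comparison asked which autosomal regions differed between the conditions. GC-rich bins had more reads in Keniry2022 and AT-rich bins had fewer. A bin was called when limma's TREAT test against a minimum fold change of 1.1 gave a Benjamini-Hochberg adjusted p under 0.05 over all bins. Of the 2391 bins, 673 (28.1%) were called, with 206 (8.62%) higher and 467 (19.5%) lower in Keniry2022. All 673 had the same direction in both lines, and in all of them the levels of the conditions did not overlap. The conditions also did not overlap in 2173 bins over the whole autosomal genome (90.9%). The share of higher calls depended on the scaling, since centring each library on its autosomal median gave 108 higher and 506 lower. Without Keniry2022 line 1 there were 21 higher and 302 lower calls, without Mulas2019 line 1 there were 83 and 437, and without Mulas2019 line 2 there were 123 and 372.

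The size of the differences was small. Bins called higher had a median log2FC of 0.22 (16.7% more reads than in Mulas2019), and bins called lower a median of -0.28 (17.8% fewer). The extremes were 0.29 and -0.44. No bin differed by 1.5-fold or more in either line, whereas 1240 bins in line 1 and 1040 bins in line 2 differed by more than 1.1-fold. Standard errors (SE) of a mean over the lines are those of the limma fit, whose spread is estimated from all 10 libraries. Their median over bins was 0.020.

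**Figure D1:**
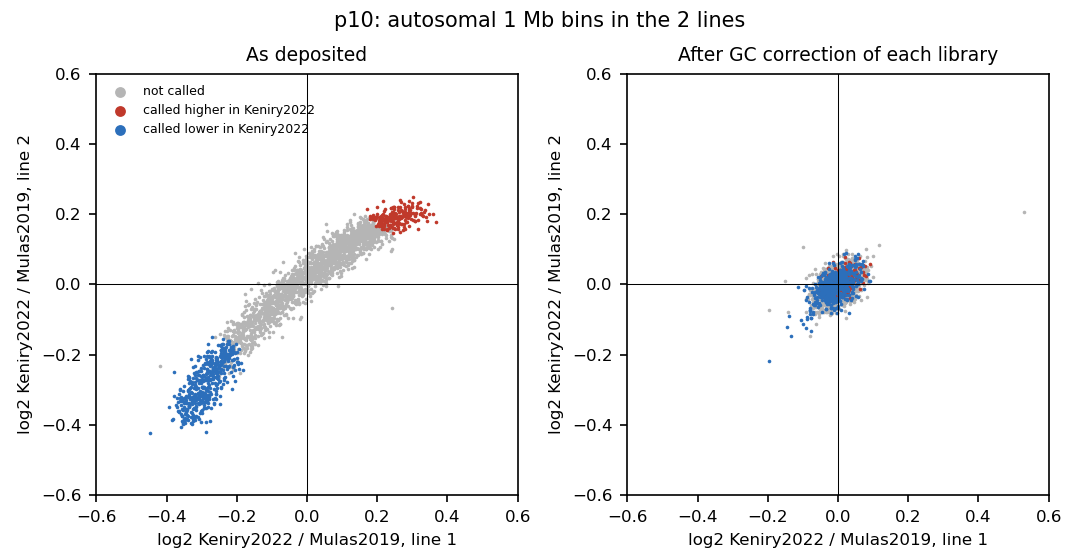
log2 Keniry2022 over Mulas2019 of each of 2391 autosomal bins of 1 Mb in line 1 (horizontal axis) and line 2 (vertical axis), as deposited (left) and after a loess correction of each library for GC content (right). Colours mark the 206 bins called higher and the 467 called lower in the test of the uncorrected values. The bins lie along a diagonal on the left and close to 0 on the right.

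The 2 lines gave similar values. The SD over bins of the difference was 0.181 in line 1 and 0.163 in line 2, while the median counting error of a difference was 0.018 and 0.017. Across bins the Pearson correlation of the lines was 0.966, and 2232 bins (93.4%) had the same sign in both. Bins of a library are not independent, since they share its depth and base composition. The plot of line 1 against line 2 shows a narrow band with bins of both directions at its ends.

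The highest bins lay in GC-rich parts of 4 chromosomes and held 10 to 19 protein-coding genes, where the median autosomal bin held 5. The highest log2FC was that of chromosome 4 from 140000001 to 141000000 (51.8% GC, 10 protein-coding genes), which holds Padi2, a peptidylarginine deiminase, and Igsf21, a synaptic adhesion protein. Its level was 434 and 437 CPM in Mulas2019 and 551 and 512 CPM in Keniry2022, with both Keniry2022 libraries above both Mulas2019 libraries. Its log2FC was 0.35 in line 1 and 0.23 in line 2, with a mean of 0.29 ± 0.033 (SE, n = 2 lines, limma adjusted p = 0.00285). The bin of chromosome 15 from 84000001 to 85000000, with the actin-linked adaptor gene Parvb, had 434 and 453 CPM in Mulas2019 and 557 and 520 CPM in Keniry2022. On chromosome 8 the bin from 121000001 to 122000000, which holds the junctophilin gene Jph3, had 424 and 425 CPM against 530 and 499 CPM. On chromosome 17 the bin from 27000001 to 28000000, with the glutamate receptor gene Grm4, had 450 and 440 CPM against 555 and 523 CPM. In these 3 bins the conditions did not overlap either, with log2FC of 0.28 in each (limma adjusted p = 0.00293, 0.00138 and 0.00124). Without Keniry2022 line 1 the bins of chromosomes 4 and 15 did not pass (log2FC 0.24 and 0.23, limma adjusted p = 0.0887 and 0.0657).

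The lowest bins were AT-rich and held 0 to 9 protein-coding genes. The lowest log2FC was that of chromosome 4 from 113000001 to 114000000 (37.0% GC), whose only protein-coding genes are Skint5 and Skint6, members of a family of butyrophilin-like genes of the skin and thymus. Its level was 308 and 322 CPM in Mulas2019 and 226 and 240 CPM in Keniry2022. Both Keniry2022 libraries lay below both Mulas2019 libraries, with log2FC of -0.45 in line 1 and -0.42 in line 2 and a mean of -0.44 ± 0.030 (SE, n = 2 lines, limma adjusted p = 0.000235). On chromosome 7 the bin from 85000001 to 86000000 holds 9 protein-coding genes, among them the pheromone receptor genes Vmn2r66, Vmn2r67 and Vmn2r71. It had 305 and 325 CPM in Mulas2019 against 233 and 248 CPM in Keniry2022. Both remaining bins held no protein-coding gene. That of chromosome 5 from 60000001 to 61000000 had 334 and 351 CPM against 256 and 269 CPM, and that of chromosome 3 from 43000001 to 44000000 had 309 and 336 CPM against 241 and 254 CPM. Their mean log2FC was -0.39 on chromosome 7, -0.38 on chromosome 5 and -0.38 on chromosome 3 (limma adjusted p = 0.000235, 0.000235 and 0.00393). The chromosome 3 bin did not pass without Keniry2022 line 1 (log2FC -0.35, limma adjusted p = 0.0758) or without Mulas2019 line 2 (-0.33, limma adjusted p = 0.0526).

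**Figure D2:**
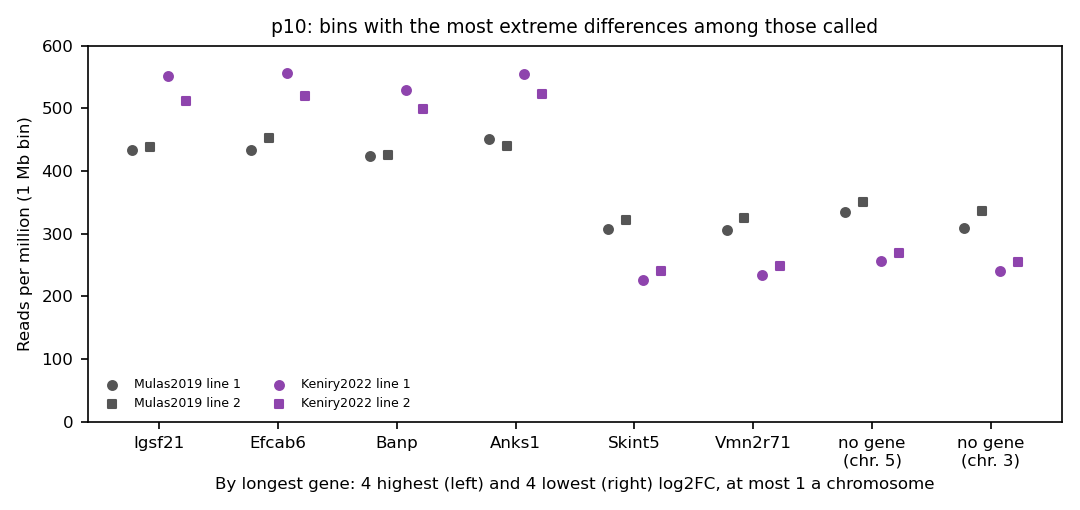
Level in CPM of the 4 highest and 4 lowest called bins (at most 1 on a chromosome and direction) in each of the 4 p10 libraries, with circles for line 1 and squares for line 2. Purple Keniry2022 points lie above the grey Mulas2019 points in the 4 bins on the left, at 499 to 557 against 424 to 453 CPM, and below them in the 4 bins on the right.

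Called bins stood alone or in runs of neighbouring bins. Those called lower fell into 185 runs with a median of 2 bins, of which 72 were single bins and 25 had 5 bins or more. Those called higher fell into 103 runs with a median of 1 bin, of which 66 were single bins and 11 had 5 or more. The longest lower runs had 11 bins each, on chromosome 14 from 88000001 to 99000000 (mean log2FC -0.32, 6 protein-coding genes) and on chromosome 15 from 14000001 to 25000000 (mean -0.28, 5 genes). The longest higher runs had 10 bins each, on chromosome 4 from 133000001 to 143000000 (mean 0.24, 181 genes) and on chromosome 8 from 117000001 to 127000000 (mean 0.23, 127 genes). Bins called lower occurred on all 19 autosomes and bins called higher on 18, chromosome 3 being the exception.

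The next question was how the difference followed base composition. When the bins were put into 5 classes of nearly equal number by GC content, 426 of the 479 bins in the most AT-rich class (35.7% to 38.5% GC) were called lower and none was called higher. Of the 478 bins in the most GC-rich class (45.0% to 53.7% GC), 204 were called higher and none lower. Outside these 2 classes 2 bins were called higher and 41 lower. In the most AT-rich class the median level was 338 and 351 CPM in Mulas2019 and 277 and 291 CPM in Keniry2022. In the most GC-rich class it was 457 and 455 CPM in Mulas2019 and 530 and 509 CPM in Keniry2022. The middle class had 427 and 422 CPM against 425 and 427 CPM, and here the conditions overlapped.

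Across bins the log2 difference rose by 0.049 per percent GC in line 1 and by 0.043 in line 2 (Pearson r = 0.964 and 0.926 over 2391 bins, a description of bins that share their libraries). A loess curve on GC took up 96.2% of the variance in line 1 and 96.0% in line 2. The relation was not straight. Within the most GC-rich class the slope was 0.027 per percent GC in line 1 and 0.013 in line 2, against 0.075 and 0.074 in the class next to the most AT-rich. The same direction was seen with 100 kb bins (0.048 and 0.041 per percent GC) and with 10 kb windows (0.046 and 0.037). Within bins, the slope on the GC of a window relative to that of its 1 Mb bin was 0.040 in line 1 and 0.026 in line 2, or 0.810 and 0.614 times the slope on the GC of the bin itself.

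**Figure D3:**
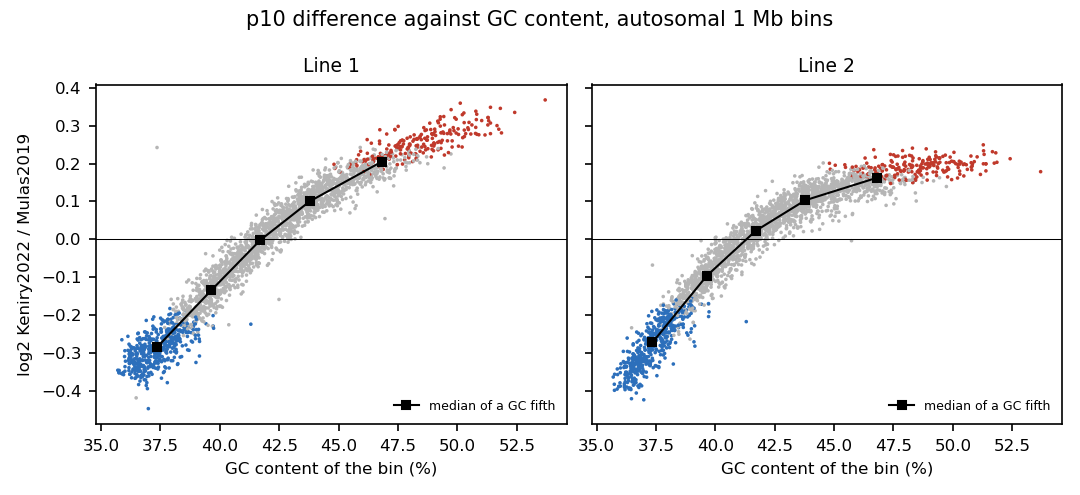
log2 Keniry2022 over Mulas2019 of 2391 autosomal bins of 1 Mb against their GC content in percent, for line 1 (left) and line 2 (right). Red and blue mark bins called higher and lower, and black squares give the median difference of 5 GC classes, from -0.28 to 0.20 in line 1 and from -0.27 to 0.16 in line 2.

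Each library had its own slope of log2 CPM on GC. It was 0.040 and 0.034 per percent GC in Mulas2019 at p10 and 0.089 and 0.077 in Keniry2022 at p10, so that the Keniry2022 libraries had the steeper slope in both lines. The group means were 0.037 ± 0.0038 and 0.083 ± 0.0085 (SD, n = 2 each). A two-sided exact permutation test of 2 against 2 libraries, which does not use the pairing by line, gave p = 0.333, the smallest it allows. No value in either condition reached into the range of the other.

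After a loess correction of each library for GC, no autosomal bin was called by TREAT with limma, against 2 bins at an unadjusted p under 0.05. The SD of the difference fell from 0.181 to 0.035 in line 1 and from 0.163 to 0.032 in line 2, and the correlation of the lines from 0.966 to 0.474. The same sign in both lines was then found in 1529 bins (63.9%). With no minimum change, an alternative chosen after seeing the data, 7 bins passed a limma adjusted p under 0.05 after the correction. Of these, 1 was higher and 6 lower, against 382 bins at an unadjusted p under 0.05.

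The lowest of these bins was chromosome 7 from 59000001 to 60000000, in the imprinted region of Ube3a, a ubiquitin ligase gene. It had 193 and 192 CPM in Mulas2019 and 165 and 165 CPM in Keniry2022, and the conditions did not overlap. Its corrected log2FC was -0.20 in line 1 and -0.22 in line 2, with a mean of -0.21 ± 0.017 (SE, n = 2 lines, limma adjusted p = 0.000324 with no minimum change). At 41.3% GC it was also the most GC-rich of the 467 bins called lower without the correction, and repeats covered 60.7% of it. On chromosome 8 the bin from 55000001 to 56000000, with the glycine receptor gene Glra3, had 213 and 217 CPM against 172 and 179 CPM. Its corrected log2FC was -0.13 and -0.15 (limma adjusted p = 0.0404 with no minimum change). The bin of Skint5 and Skint6 had a corrected log2FC of -0.14 and -0.12 (limma adjusted p = 0.00843 with no minimum change), so that about a log2FC of -0.13 of its -0.44 remained. Over 5 classes of repeat content the median corrected log2FC was 0.0038 in the class with the fewest repeats and -0.017 in the class with the most, where repeats covered 40.6% to 61.9% of the bin.

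The highest corrected value belonged to chromosome 17 from 39000001 to 40000000, a bin with genes of the Esp family of exocrine gland peptides. It rested on a single 10 kb window, from 39840001 to 39850000, which holds an annotated ribosomal RNA gene (CT010467.1). This window had 123 and 133 CPM in Mulas2019 and 266 and 192 CPM in Keniry2022, where the median 10 kb window of the genome had 4.11. The log2FC of the window was 1.12 in line 1 and 0.53 in line 2, in the same direction in both. That of the whole bin was 0.24 in line 1 and -0.07 in line 2, and without the window it was -0.39 and -0.43. The mean log2FC of the bin was 0.09 (limma adjusted p = 1) with the window and -0.41 (adjusted p = 0.000195) when windows of very high count were left out. Ribosomal RNA genes are repeated in long arrays, of which a reference genome holds few copies. The other corrected high bin, on chromosome 7 from 7000001 to 8000000 with pheromone receptor genes such as Vmn2r35, had 110 and 108 CPM in Mulas2019 and 107 and 108 CPM in Keniry2022. Its log2FC was -0.04 and -0.004 before and 0.12 and 0.11 after the correction, where it passed neither TREAT (limma adjusted p = 1) nor the test with no minimum change.

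Whole chromosomes were compared by the median of their bins relative to the median of all autosomal bins. Of the 19 autosomes, 13 (68.4%) were called by limma at an adjusted p under 0.05, with 7 (36.8%) higher and 6 (31.6%) lower in Keniry2022. All 19 had the same sign in both lines. The shifts ranged from -0.12 to 0.14 in a line, far from the 0.58 of a gain in every cell. Without Mulas2019 line 2, 8 autosomes were called.

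Chromosome 11, the most GC-rich autosome at 43.8%, had the highest shift. Its relative level was 0.084 and 0.085 in Mulas2019 and 0.220 and 0.180 in Keniry2022, with both Keniry2022 values above both Mulas2019 values. The shift was 0.136 in line 1 and 0.094 in line 2, with a mean of 0.115 ± 0.015 (SE, n = 2 lines, limma adjusted p = 0.000485). It took 5.38% (95% Wilson interval 5.37% to 5.39%) and 5.34% (5.34% to 5.35%) of the autosomal reads in Mulas2019 and 5.70% (5.69% to 5.71%) and 5.60% (5.59% to 5.60%) in Keniry2022, intervals that cover counting error only. After the GC correction its shift was 0.0046.

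Chromosome 3, the most AT-rich at 40.4% GC, had the lowest mean shift. Its relative level was -0.059 and 0.007 in Mulas2019 and -0.138 and -0.114 in Keniry2022. The shift was -0.079 in line 1 and -0.121 in line 2, with a mean of -0.100 ± 0.051 (SE), and it did not pass the test (limma adjusted p = 0.105). After the GC correction the lines had opposite signs, at 0.009 in line 1 and -0.039 in line 2, the largest size of any corrected chromosome value. Chromosome 3 took 6.45% and 6.75% of the autosomal reads in Mulas2019 and 6.15% and 6.31% in Keniry2022, so that line 2 had the higher share in each condition.

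Chromosomes 8 and 1, also known for gains in culture, had small shifts of opposite sign. Chromosome 8 had a relative level of -0.018 and -0.017 in Mulas2019 and 0.036 and 0.013 in Keniry2022. Its shift of 0.043 passed the test (limma adjusted p = 0.00606), and it was -0.005 after the GC correction. Chromosome 1 had a relative level of -0.037 and -0.032 in Mulas2019 and -0.071 and -0.064 in Keniry2022. Its shift of -0.033 passed the test (limma adjusted p = 0.00855), and it was 0.004 after the correction. It did not pass without Keniry2022 line 1 (-0.028, limma adjusted p = 0.0662) or without Mulas2019 line 2 (-0.031, limma adjusted p = 0.0558). After the correction only chromosome 16 of the 19 autosomes was called, at 0.015 (limma adjusted p = 0.0124), where its uncorrected shift had been -0.060 (limma adjusted p = 0.00334). Across the 19 autosomes the shift and the mean GC content had a Pearson r of 0.937 in line 1 and 0.895 in line 2, a description over chromosomes of the same libraries.

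**Figure D4:**
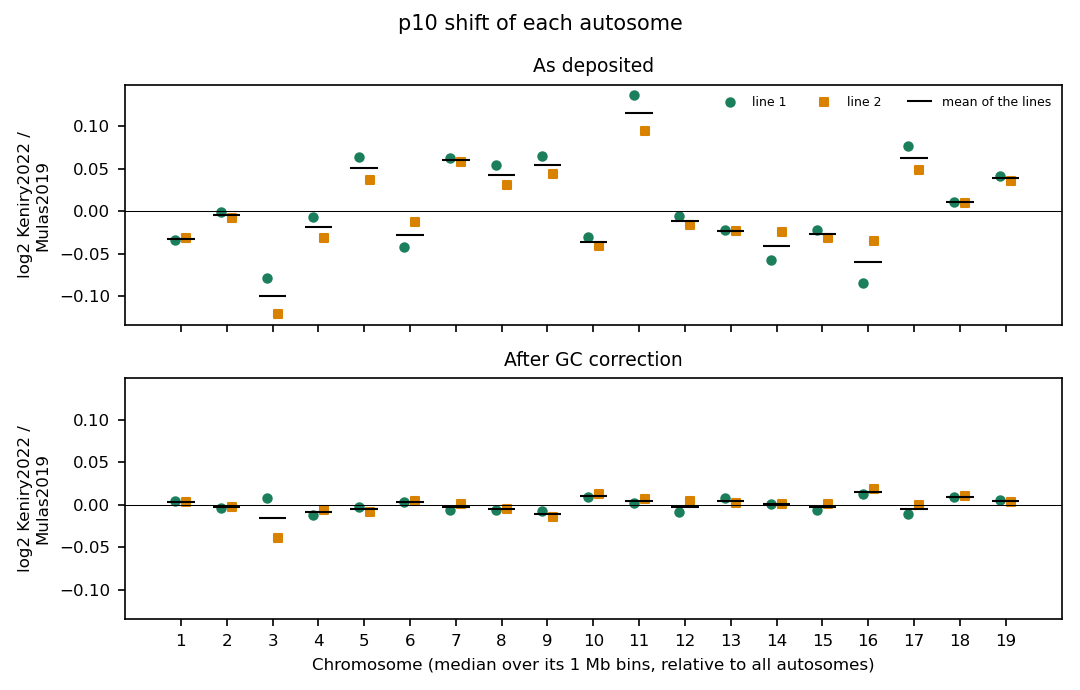
Shift of each autosome between conditions (log2 Keniry2022 over Mulas2019 of the median bin, relative to all autosomes) in line 1 (green circles) and line 2 (orange squares), with the mean of the lines as a bar, as deposited (top) and after GC correction (bottom). Values run from -0.12 on chromosome 3 to 0.14 on chromosome 11 at the top, and no corrected value is larger in size than 0.039.

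Chromosome ends were read against the shares of all autosomal bins, 8.62% higher and 19.5% lower. In the last 5 Mb of the 19 autosomes, 25 of 95 bins (26.3%) were called higher and 16 (16.8%) lower, with a median log2FC of 0.09 at a median GC of 43.9%. In the first 5 Mb with bins past the filter, next to the centromere, 3 of 95 bins (3.16%) were called higher and 14 (14.7%) lower, both below the shares of all bins, and the median was -0.028 in line 1 and 0.0009 in line 2 at 41.4% GC. On distal chromosome 2 from 150 Mb to the end, 14 of 30 bins were called higher and none lower, with a median of 0.22 in line 1 and 0.17 in line 2. The median after the GC correction was between -0.005 and 0.005 in all 3 regions.

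The share of bins called higher and the median log2FC rose with the number of genes in a bin, whereas the share called lower did not fall throughout. Among the 275 bins with no protein-coding gene, 199 (72.4%) were called lower and none higher, with a median log2FC of -0.28. Among the 111 bins with 31 genes or more, 41 (36.9%) were called higher and 10 (9.01%) lower, with a median of 0.17. Between these, the share called higher was 2.44% of the 943 bins with 1 to 5 genes, 9.80% of the 765 with 6 to 15 and 22.6% of the 297 with 16 to 30. The share called lower was 23.5%, 3.53% and 3.03% in the same classes, below that of the bins with the most genes in the last 2 of them. Within a band of 40% to 42% GC, bins with under 5 genes had a median log2FC of -0.03 (211 bins, median GC 40.8%). Bins with over 10 genes had a median of -0.02 (82 bins, median GC 41.3%). In this order the medians were -0.049 and -0.040 in line 1 and -0.006 and -0.016 in line 2, so the lines ranked them differently. Of the 20535 protein-coding genes that start in a tested bin, 4081 (19.9%) lay in a bin called higher and 1244 (6.06%) in a bin called lower (25.9% in all), and the median over these genes was 0.11. These values are the background for the gene lists. They describe the read level of DNA, and genes in the same bin share a value. Whether they reflect copy number was not tested.

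The naive pluripotency genes lay in bins with a median GC of 44.2%, the same as for all protein-coding genes (44.2%). Of the 14 genes, 5 (35.7%, against 19.9% of all genes) lay in bins called higher and none in a bin called lower, with a median log2FC of 0.14 against 0.11 for all genes. The called loci were Pou5f1, Esrrb, Tbx3, Sall4 and Fgf4, of which Sall4 and Fgf4 were not examined with a library left out. The bin of Pou5f1, which encodes OCT4, had 426 and 415 CPM in Mulas2019 and 503 and 477 CPM in Keniry2022, with no overlap of the conditions (log2FC 0.22 ± 0.022, SE, limma adjusted p = 0.00821). The bin of Tbx3 was the highest of the list, with 417 and 422 CPM against 510 and 493 CPM (log2FC 0.26, limma adjusted p = 0.00130), and that of the orphan receptor gene Esrrb had 463 and 468 CPM against 549 and 528 CPM (log2FC 0.21, limma adjusted p = 0.0185). The bins of Nanog (log2FC 0.13), Klf4 (0.14) and Sox2 (0.10) did not pass the test (limma adjusted p = 1, 0.881 and 1). Zfp42, a marker gene of the naive state, was at the low end, with 369 and 370 CPM in Mulas2019 and 334 and 352 CPM in Keniry2022 (log2FC -0.11, limma adjusted p = 1). After the GC correction the log2FC of its bin was 0.014. Without Keniry2022 line 1 the bins of Pou5f1 and Esrrb did not pass (log2FC 0.18 each, limma adjusted p = 0.166 and 0.232), nor did Pou5f1 without Mulas2019 line 2 (0.21, limma adjusted p = 0.0706), Esrrb without Mulas2019 line 1 (0.20, limma adjusted p = 0.129) or Esrrb with centred libraries (0.20, limma adjusted p = 0.0875). The median of the list was 0.013 after the GC correction.

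Genes of the pathways that 2i/LIF acts on had a median bin GC of 45.9%, against 44.2% for all protein-coding genes. Of 15 genes, 6 (40%, against 19.9% of all genes) lay in bins called higher and none in a bin called lower, with a median log2FC of 0.16. They were Map2k2 and Mapk3 of the MEK/ERK cascade, Ctnnb1 and Tcf7l1 of the WNT pathway downstream of GSK3, and Stat3 and Socs3 of the LIF response. The bin of Map2k2 had 305 and 312 CPM in Mulas2019 and 387 and 354 CPM in Keniry2022 (log2FC 0.26, limma adjusted p = 0.0110), and that of Stat3 had 464 and 461 CPM against 558 and 526 CPM (log2FC 0.23, limma adjusted p = 0.00922). The bins of Map2k1 (log2FC 0.18) and Gsk3b (0.12) did not pass (limma adjusted p = 0.143 and 1). Map2k2 and Stat3 did not pass without Keniry2022 line 1 (log2FC 0.20 and 0.19, limma adjusted p = 0.254 and 0.174) or without Mulas2019 line 1 (0.23 and 0.22, limma adjusted p = 0.105 and 0.0544). Map2k1 passed without Keniry2022 line 2 (0.21, limma adjusted p = 0.0202). The median of the list was 0.017 after the GC correction.

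Lineage genes were in bins called higher at about the share of all genes. Of the 14 genes 3 (21.4%, against 19.9%) were called higher and none lower, where 6.06% of all genes were. They were Dnmt3b, Pou3f1 and the neural gene Sox1, whose bin had 454 and 448 CPM in Mulas2019 and 538 and 522 CPM in Keniry2022 (log2FC 0.23, limma adjusted p = 0.00569). The endoderm gene Sox17 was lowest at -0.09, and the median of the list was 0.15. Of 17 growth control genes 5 (29.4%) were called higher and none lower, which were Trp53, Cdkn1a, Cdk4, Ccnd1 and Ccnd2, with a median of 0.16 over the list. The bin of the tumour suppressor gene Trp53 had 456 and 458 CPM against 553 and 524 CPM (log2FC 0.24, limma adjusted p = 0.0103). The cell cycle inhibitor Cdkn1a was highest at 0.24 (limma adjusted p = 0.00770). The bin of Myc had a log2FC of -0.07 and that of Cdkn2a -0.10 (limma adjusted p = 1 for each), and that of the survival gene Bcl2l1 had 0.19 (limma adjusted p = 0.0642). Sox1, Cdkn1a and Trp53 did not pass without Keniry2022 line 1 (log2FC 0.21, 0.19 and 0.20, limma adjusted p = 0.114, 0.141 and 0.198), nor did Trp53 without Mulas2019 line 1 (0.22, limma adjusted p = 0.0752). Bcl2l1 passed without Keniry2022 line 2 (0.22, limma adjusted p = 0.0158) and with the line as a fixed replicate block (0.19, limma adjusted p = 0.0294).

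Ribosomal protein genes, which encode the subunits of the translation machinery, lay in bins with a median of 17 genes for the cytosolic and 19.5 for the mitochondrial list, against 17 for all genes. The median bin GC was 45.8% for the cytosolic and 45.3% for the mitochondrial list, against 44.2% for all genes. Of 84 cytosolic ribosomal protein genes, 25 (29.8%) lay in bins called higher and 2 (2.38%) in bins called lower, with a median log2FC of 0.17. Of 78 mitochondrial ribosomal protein genes the counts were 25 (32.1%) and 1 (1.28%), with a median of 0.14. Over all genes the shares were 19.9% and 6.06% and the median 0.11. The bin of Rps10 was highest among the former (log2FC 0.28), and that of the retrogene Rpl10l was lowest, with 343 and 356 CPM in Mulas2019 against 296 and 290 CPM in Keniry2022 (log2FC -0.26, limma adjusted p = 0.00133). Mrpl4 had the highest value of the mitochondrial list (0.27, limma adjusted p = 0.00267) and Mrps30 the lowest (-0.21, limma adjusted p = 0.0366). Mrps30 did not pass without Keniry2022 line 1 (-0.17, limma adjusted p = 0.449), without Mulas2019 line 2 (-0.18, limma adjusted p = 0.273) or with no replicate block (-0.21, limma adjusted p = 0.0535). After the GC correction the medians were -0.0004 and -0.006.

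Chemosensory receptor genes lie in dense clusters, so that few bins hold many of them. Of 1127 olfactory receptor genes in 83 bins, 503 were in bins called lower and 4 in bins called higher, and their median log2FC was -0.14. The 503 genes came from 16 bins, so that 19.3% of the bins of the list were called lower, against 19.5% of all autosomal bins. The lowest was the bin of Olfr292 on chromosome 7, with 319 and 337 CPM in Mulas2019 and 249 and 265 CPM in Keniry2022 (log2FC -0.35, limma adjusted p = 0.000508). Olfr223 on chromosome 11 was the highest, with 495 and 491 CPM against 574 and 560 CPM (log2FC 0.20, limma adjusted p = 0.0307). It did not pass without Keniry2022 line 1, Mulas2019 line 1 or Mulas2019 line 2 (log2FC 0.19, 0.20 and 0.20, limma adjusted p = 0.284, 0.119 and 0.101), nor with centred libraries (0.19, limma adjusted p = 0.121) or no replicate block (0.20, limma adjusted p = 0.0576). Of 328 vomeronasal receptor genes 269 were in tested bins, and 92 of these lay in bins called lower and none in a bin called higher. They came from 12 of 46 bins (26.1%). Their median was -0.12, with the bin of Vmn2r67 lowest (-0.39) and that of Vmn1r183 highest (0.19, limma adjusted p = 0.0587, and 0.23 with limma adjusted p = 0.00769 without Keniry2022 line 2). After the GC correction the medians of the receptor lists were -0.013 and -0.053.

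Very long genes and the Hox clusters lay between these lists. Of 218 genes longer than 500 kb, 48 were in bins called lower and 6 in bins called higher, with a median log2FC of -0.05. Of the 214 bins of the list 22.4% were called lower and 2.80% higher, against 19.5% and 8.62% of all autosomal bins. The 39 Hox genes, regulators of body axis patterning in 4 clusters, lay in 5 bins, none of which was called, with a median of 0.11 and values from 0.04 at Hoxd1 to 0.19 at Hoxb3. Without Keniry2022 line 2 the bin of Hoxb3 passed (0.23, limma adjusted p = 0.0166).

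**Figure D5:**
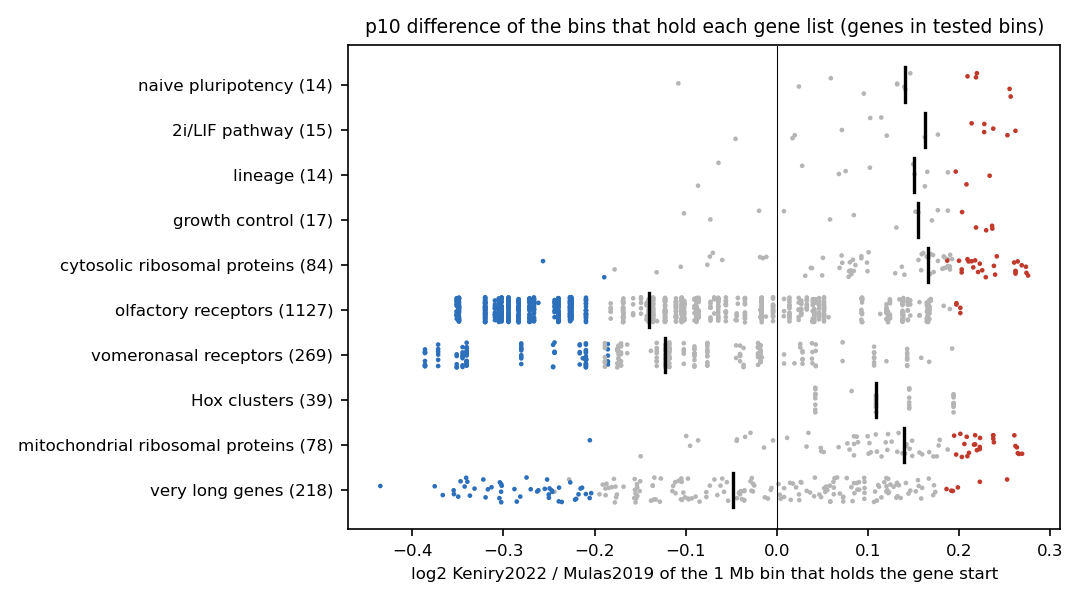
log2 Keniry2022 over Mulas2019 at p10 of the 1 Mb bin that holds the start of each gene, with 1 point per gene and a black bar at the median of each list. Red and blue mark genes in bins called higher and lower, and genes that share a bin share a value. Medians run from -0.14 for olfactory receptor genes to 0.17 for cytosolic ribosomal protein genes.

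The p10 difference was then set beside that at p20, whose replicate numbers the Y reads leave in doubt for Keniry2022. Over autosomal bins the SD of the difference between the group means was 0.170 at p10 and 0.086 at p20, and its slope on GC was 0.046 and 0.023 per percent. The test of the p10 difference against the p20 difference called no bin in limma's TREAT (69 bins at an unadjusted p under 0.05) and none with voom (91 bins). With no minimum change it called 944 bins. Among the autosomes only chromosome 12 differed between passages, with a p10 shift of -0.011 and a p10 shift minus p20 shift of -0.056 (limma adjusted p = 0.0326). It did not pass without Mulas2019 line 1 (-0.052, limma adjusted p = 0.151) or line 2 (-0.060, limma adjusted p = 0.0731) at p10, and after the GC correction it was -0.009 (limma adjusted p = 0.447).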

How the data were processed

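The data comprised DNA-seq libraries of 2 male mESC lines, of which the 4 p10 libraries were compared. The authors demultiplexed reads with bcl2fastq and aligned them to mm10 with Bowtie2, per the submitters' processing notes. Their versions are not given in the sources used here. As log2 values, the authors deposited 272566 windows of 10 kb. Undoing the log2 and the scaling to the largest library total gave whole reads in 100% of values (tolerance 0.1 reads), with 0.9 reads in place of 0. On 21 chromosomes the last window end equalled the chromosome length in GRCm38. Blacklists and replication timing maps were not used here.

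The linear values were summed in 1 Mb bins as CPM. Bins below 0.1 of the median bin were left out, and 2541 bins on all chromosomes remained. log2 CPM was fitted with limma 3.58.1 (trended prior, statmod 1.5.0, R 4.3.3) on all 10 libraries, with a coefficient for each of the 5 groups and the line as random block (correlation 0.132). The study used voom, which takes counts, so the recovered reads were also put through voom. TREAT tested against a fold change of 1.1, with p-values adjusted by Benjamini-Hochberg at 0.05 over 2541 bins. The methods of the study print this minimum as a log2 fold change, which was also run. Chromosomes 1 to 19 and X were tested with limma. GC content was corrected by subtracting from each library its loess curve (span 0.3). The scripts were tested on simulated data. With 2 lines per group the spread is weakly estimated.

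The replicate number pairs the libraries, because per the methods both conditions started from the same line at p0. Deviations of same-numbered p10 libraries correlated at 0.438 over bins, at 0.091 after GC correction and at -0.034 after it without chromosome 3. Because of the Y reads the numbers of the p20 Keniry2022 libraries are doubtful, and a fit without that group was an alternative.

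The comparison, the gene lists and the naming rule were chosen with earlier results of these data known. Named bins were the 4 highest and 4 lowest called bins with the same direction in both lines, at most 1 per chromosome and direction, and the 2 highest and 2 lowest after GC correction of the same sign in both lines. Named genes were the highest and lowest of each list and 11 fixed genes, each with the value of the bin of its start in GENCODE M21. The lowest gene of 1 list is not reported here. Other called list members, genes of the 10 kb windows and chromosomes 12 and 16 were named after their values were seen. The calls of these other list members were not examined with a library left out. Intervals are Wilson 95% intervals. Remaining steps used Python 3.11.15 (numpy 2.4.6, pandas 2.3.3, scipy 1.17.1, and for plots matplotlib 3.10.9).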

Additional observations from a re-analysis of the deposited data

Results flagged for a closer look

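The shift of chromosome 12 between conditions differed between passages, with a p10 shift minus p20 shift of -0.056 (limma adjusted p = 0.0326 over 20 chromosomes). Its relative level at p10 was -0.037 and -0.046 in Mulas2019 and -0.043 and -0.063 in Keniry2022. At p20 it was -0.096 and -0.087 in Mulas2019 and -0.050 and -0.044 in Keniry2022. With 500 kb bins the value was -0.023 (limma adjusted p = 0.190).

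In the bin of chromosome 17 from 39000001 to 40000000 the difference had opposite signs in the 2 lines, at 0.242 in line 1 and -0.068 in line 2. This difference between lines was not tested. Without the window of the ribosomal RNA gene CT010467.1 the values were -0.39 and -0.43.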

How the results depend on the processing

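The GC correction changed the most results, with the line as a random or as a fixed replicate block. It left 0% of bins called (2 at an unadjusted p under 0.05), 0% higher and 0% lower, and 1 autosome. With no minimum change beside it, an alternative chosen after seeing the data, 0.293% of bins were called, 0.0418% higher and 0.251% lower. The SD of the difference became 0.0351 in line 1 and 0.0325 in line 2. List medians became 0.0129 for naive pluripotency, 0.0165 for the 2i/LIF pathway, -0.00066 for lineage, 0.00856 for growth control, -0.000411 for cytosolic and -0.00566 for mitochondrial ribosomal protein genes, -0.0128 for olfactory and -0.0525 for vomeronasal receptors, 0.00639 for Hox clusters and 0.00722 for very long genes. Among named bins and chromosomes that had been called it turned the sign for the bins of Pou5f1 (-0.0040), Rpl10l (0.0508), Olfr223 (-0.00968) and Mrps30 (0.0488) and for chromosomes 1 (0.00386), 8 (-0.00505) and 16 (0.0153), and 30 of the 31 named bins and chromosomes called without it lost their call. Of those not called, 6 turned sign.

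With no minimum change 81.7% of bins were called, 42.5% higher and 39.3% lower, and the difference between passages was called in 944 bins (chosen after seeing the data). With the minimum of 1.1 read as a log2 value, 0% were called in either direction, 0% higher and 0% lower, and 0 bins had an unadjusted p under 0.05. Centring each library on its autosomal median left 4.52% higher, and the medians of vomeronasal receptors (-0.133) and Hox clusters (0.0981) moved. With 500 kb bins the medians were 0.194 for naive pluripotency, 0.211 for the 2i/LIF pathway, -0.206 for olfactory receptors, -0.177 for vomeronasal receptors and 0.127 for Hox clusters. With 10 kb windows the GC slope of line 2 was 0.0372. Leaving out windows of very high count gave -0.409 for the bin of chromosome 17 from 39000001. Of the 31 named bins and chromosomes called in the main fit, 1 lost its call with these windows left out and 1 without the p0 libraries. With 500 kb bins 2 of 21 lost their call, and 2 others gained one.

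Leaving out each p10 library in turn gave 13.5% to 34.3% of bins called, 0.878% to 12.5% higher, 12.6% to 21.8% lower, and 8 to 12 autosomes. The list medians were 0.119 to 0.160 for naive pluripotency, 0.122 to 0.202 for the 2i/LIF pathway, 0.133 to 0.165 for lineage, 0.136 to 0.183 for growth control, 0.140 to 0.198 for cytosolic and 0.115 to 0.159 for mitochondrial ribosomal protein genes, -0.158 to -0.131 for olfactory and -0.135 to -0.126 for vomeronasal receptors, 0.0995 to 0.118 for Hox clusters and -0.0642 to -0.0424 for very long genes. The remaining library of a condition is assumed to vary like the other groups. The SD of a single line was 0.163 or 0.181.

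Pairing the libraries by line as a fixed replicate block gave 28.9% of bins called, no block gave 26.2%, and the 4 p10 libraries alone with a fixed block 29.4%. The block moved no count by over 1.5 times. Of 49 named bins and chromosomes, a fixed block in the fit of all 10 libraries changed the call of 1 (Bcl2l1) and no block that of 2 (Olfr223 and Mrps30). With the 4 p10 libraries alone and a fixed block 3 of the 49 gained a call. The cause of these changes was not tested. The median counting error of a difference was 0.018 in line 1 and 0.017 in line 2, and the median standard error of the mean difference over both lines was 0.020.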

Other observations

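Beside the window of the ribosomal RNA gene, 6 windows of 10 kb were of very high count, with a mean over all 10 libraries over 10 times the median window. The window of chromosome 2 from 98660001 to 98670000, with Gm10800 and Gm10801, had 3387 and 3039 CPM in Mulas2019 and 2530 and 2619 CPM in Keniry2022, at 38.1% GC. The window of chromosome 9 from 35300001 to 35310000, with Gm33838, had 201 and 166 CPM in Mulas2019 and 149 and 160 CPM in Keniry2022, at 42.4% GC. The window of chromosome 14 from 19410001 to 19420000, with Gm21738, had 78.8 and 68.8 CPM in Mulas2019 and 58.5 and 63.3 CPM in Keniry2022, at 37.1% GC. These 3 windows were lower in Keniry2022 in both lines.

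The other 3 windows were higher in Keniry2022 in both lines. The neighbouring windows of chromosome 11 from 3180001 to 3190000 and from 3190001 to 3200000, in the region of Sfi1, had 45.5% and 44.1% GC. The first had 101 and 97.2 CPM in Mulas2019 and 108 and 104 CPM in Keniry2022, and the second had 174 and 164 CPM in Mulas2019 and 190 and 176 CPM in Keniry2022. The window of chromosome 15 from 75080001 to 75090000 had 33.9 and 32.6 CPM in Mulas2019 and 53.3 and 45.7 CPM in Keniry2022, at 41.8% GC. Its values in Mulas2019 were under 10 times the median window of 4.11 CPM, so that it met the rule through libraries in which it was higher. The differences of the 6 windows were not tested.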
